A study of Mus musculus with 8 samples.

Results

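A set of 10 genes was followed here, chosen by name as transcription factors and a chromatin reader of blood stem and progenitor cells: Hoxa7, Hoxa9, Hoxa10, Meis1, Mecom, Erg, Hlf, Mllt3, Gata2 and Myb. They are 10 of the 47729 genes in the count table, all 10 had reads, and all 10 were among the 13462 genes with enough reads to be tested. The study used a mouse model of chronic myeloid leukaemia in C57BL/6 mice. Marrow of donors treated with 5-fluorouracil received a retrovirus with BCR-ABL1, the fusion kinase of this leukaemia, and red fluorescent protein, plus a lentivirus with an shRNA and Venus. It was then transplanted into recipients irradiated with 900 cGy. Live marrow cells positive for both reporters and negative for lineage markers were sorted, and 1 library was made from each of 8 mice. The 4 mice of the scrambled group carried a non-targeting shRNA, and the 4 mice of the Fubp1-shRNA group carried an shRNA against Fubp1, which encodes a DNA- and RNA-binding protein first described at the MYC gene. Both groups carried BCR-ABL1, so no normal marrow is compared. Each library holds the cells of 1 irradiated recipient. No source used here gives the ages of the mice.

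HOX genes lie in chromosomal clusters and encode homeodomain proteins. Those of the A cluster, above all Hoxa9, are active in blood stem and early progenitor cells and are switched off as the cells mature. HOXA proteins bind DNA together with MEIS1 and PBX proteins, and chromatin regulators of the MLL and DOT1L family keep the cluster open. Mecom, Erg and Hlf encode further factors of the stem cell state, Mllt3 encodes the AF9 protein, which reads acylated histones and brings elongation factors and DOT1L to chromatin, and Gata2 and Myb act both in stem cells and in committed progenitors.

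The libraries held between 22465303 and 44761356 reads counted on genes. No pair of libraries of a group agreed within sampling noise, with a chi-square per degree of freedom over genes of at least 10.7. Levels are in CPM, a gene's reads scaled to a common library total after TMM normalization. Fubp1 itself was at 296, 284, 291 and 396 CPM in replicates 1 to 4 of the scrambled group and at 281, 228, 220 and 239 CPM in Fubp1-shRNA replicates 1 to 4. Every Fubp1-shRNA library lay below every scrambled library, by little for replicate 1, and the log2 fold change of -0.39 (SE 0.12) had an adjusted p of 0.0604 in edgeR's quasi-likelihood test. Over all tested genes, that test with Benjamini-Hochberg adjustment at 0.05 called 2062 genes, or 15.3%, of which 1080 (8.02%) were higher and 982 (7.29%) lower in the Fubp1-shRNA group. The number fell to 526 without scrambled replicate 2, 657 without scrambled replicate 3 and 748 without scrambled replicate 1, but only to 1859 without scrambled replicate 4. It was 967, 989 and 1373 without Fubp1-shRNA replicates 1, 2 and 4, and 3425 without Fubp1-shRNA replicate 3. The T cell marker Cd3e and the B cell marker Ms4a1 had no counts in any library. Other markers of these cells had reads, among them Cd79b of B cells at 0.0317 to 3.38 CPM and Cd3g of T cells at up to 0.121 CPM. The erythroid marker Car2 was abundant, at 1795 to 3916 CPM, with means of 3458 and 2112 CPM (edgeR adjusted p = 0.0192). Of 8 erythroid markers, 2 were called higher and 4 lower. Hbb-bs was among the higher, at 298 and 921 CPM (edgeR adjusted p = 0.0230). Both calls were lost without scrambled replicate 2 or 3 or Fubp1-shRNA replicate 1.

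RefSeq holds 16 start sites for the 10 genes on GRCm38.p6. The 250 bases before each were searched on both strands for short motifs of the families to which these factors belong, as background to genes whose levels moved together across libraries. The motif TGATNNAT stood for HOX with PBX and TGACAG for MEIS proteins. The letters AGATAA were used for the GATA family, and those for ETS factors such as ERG were CGGAAGT. HLF was searched as TTACNTAA. The letters searched for MYB were CAACGG, with the variant TAACGG that differs in its start, and a pair with another end, CAACTG together with its variant TAACTG. No motif's letters form part of another's. Of the windows, 3 are shown, chosen to contrast the window with the ETS match, the window with most matches and the window at the most upstream start of Mllt3, the only one of the 10 genes to pass the test. They read 5′ to 3′ on the gene's strand, and capitals mark a match, written as its reverse complement where it lies on the opposite strand.
Meis1, chr11:19018970-19019219, minus strand: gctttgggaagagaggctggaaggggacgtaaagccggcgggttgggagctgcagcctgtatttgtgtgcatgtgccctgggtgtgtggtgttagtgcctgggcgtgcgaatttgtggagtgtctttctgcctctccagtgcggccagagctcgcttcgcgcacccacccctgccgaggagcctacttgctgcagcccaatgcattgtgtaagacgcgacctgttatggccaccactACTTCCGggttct
Erg, chr16:95459349-95459598, minus strand: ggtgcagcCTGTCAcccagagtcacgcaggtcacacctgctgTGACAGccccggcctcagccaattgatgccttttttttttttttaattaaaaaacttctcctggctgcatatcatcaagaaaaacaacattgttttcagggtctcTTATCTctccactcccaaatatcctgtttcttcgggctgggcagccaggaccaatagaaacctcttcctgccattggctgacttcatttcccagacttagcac
Mllt3, chr4:88033408-88033657, minus strand: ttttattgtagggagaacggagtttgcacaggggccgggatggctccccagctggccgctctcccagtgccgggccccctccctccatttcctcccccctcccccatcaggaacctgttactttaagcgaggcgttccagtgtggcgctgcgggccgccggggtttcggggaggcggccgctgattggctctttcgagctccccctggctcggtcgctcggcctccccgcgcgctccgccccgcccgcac
The Meis1 window has 1 ETS match, from 13 to 7 bases before the start. The Erg window, at a start inside the gene, has 2 MEIS matches and 1 GATA match. The Mllt3 window holds none of these letters. Among all 16 windows, the MEIS letters were in 3, of Erg, Mecom and Mllt3 (at another start), against 15.9% of all 32841 RefSeq windows of this length. The HOX with PBX letters were in 1 window, of Mecom (7.69% of all windows), the GATA letters in 1 (9.99%) and the ETS letters in 1 (4.92%). The HLF and MYB letters were in none (2.06% and 23.7% of all windows). A match describes the letters of a window and does not show that a factor binds there.

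Mllt3 fell in the Fubp1-shRNA group, and no other gene of the 10 passed the test in either direction. Hoxa7, Hoxa9 and Meis1 averaged 722%, 430% and 259% of their scrambled means and did not pass, and their libraries differed several-fold within a group. The 10 genes divided by level into 7 of low level, Hoxa7, Hoxa9, Hoxa10, Meis1, Mecom, Erg and Hlf, which stayed below 50 CPM in every library, and 3 of high level, Mllt3, Gata2 and Myb, a division made after the values were seen. The 7 low genes all had a fold change above 0 and the 3 high genes one below 0. Called were 0 higher and 1 lower, beside 8.02% and 7.29% of all tested genes. At an unadjusted p under 0.05, 3 were higher and 1 lower, beside 18% and 15.5% of all tested genes. With DESeq2 2 of the 10 were called higher and 1 lower, where it called 23.1% of all genes (13.1% higher, 10% lower). With limma-voom none was called higher and 1 lower, where it called 13.1% of all genes (6.25% higher, 6.84% lower). Without Fubp1-shRNA replicate 3, edgeR called 3 higher and 1 lower, beside 24.7% of all genes (14.1% higher, 10.6% lower). The median log2 fold change over the 10 was 0.95, beside 0.00 over all tested genes. In bulk libraries, fewer cells of a type and less RNA per cell cannot be told apart.

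To set the genes against each other, CPM was divided by the kilobases of merged exons in GENCODE M21 (GRCm38). Over the 8 libraries Myb had the highest level at 27.6 ± 7.27 CPM per kb (SD, n = 8), then Gata2 at 24.9 ± 6.23 and Mllt3 at 10.4 ± 2.63. Erg came next at 1.15 ± 1.62 CPM per kb, then Hoxa9 at 0.768 ± 0.814 and Meis1 at 0.492 ± 0.339. Lower still were Hoxa7 at 0.264 ± 0.321, Hoxa10 at 0.190 ± 0.129, Hlf at 0.164 ± 0.157 and Mecom at 0.0505 ± 0.0392 CPM per kb. The step from Mllt3 to Erg was the only one between neighbours whose ranges over the 8 libraries did not overlap, since Mllt3 was never under 7.11 and Erg never over 5.01 CPM per kb. Within a library, Gata2 was above Mllt3 in 8 of 8 and Hlf above Mecom in 8 of 8, whereas Myb was above Gata2, and Erg above Hoxa9, in 4 of 8.

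**Figure D1:**
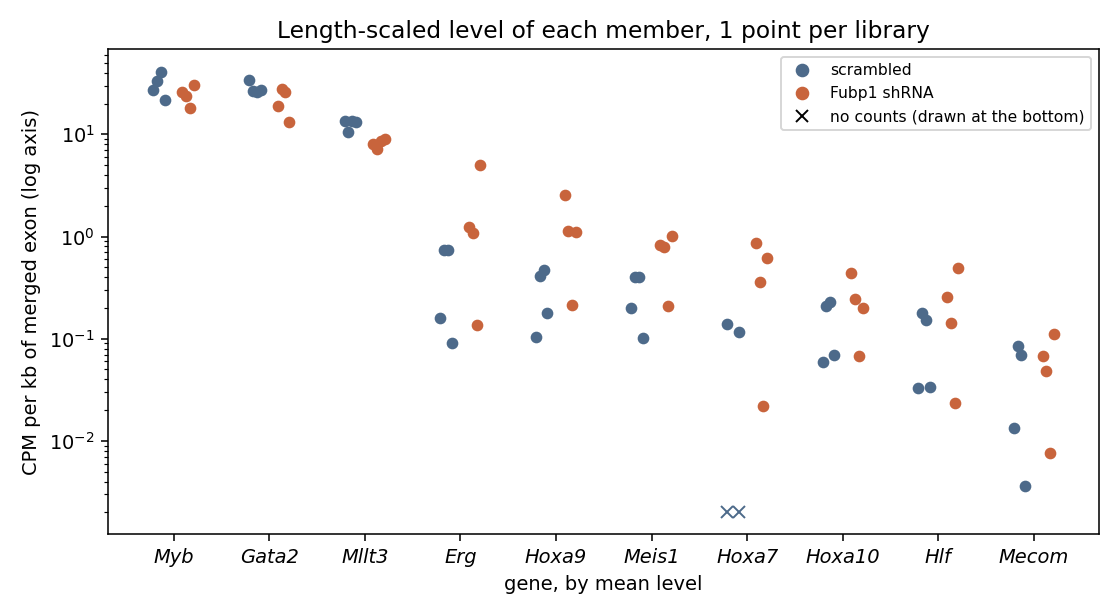
Level of each of the 10 genes in each of the 8 libraries, in CPM per kilobase of merged exon on a log axis, with crosses for the 2 libraries that had no Hoxa7 read. Myb, Gata2 and Mllt3 (7.11 CPM per kb or more in every library) stand apart from the other genes, whose points reach down from 5.01 CPM per kb and overlap from neighbour to neighbour.

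Hoxa7 and Hoxa9 had higher means in the Fubp1-shRNA group than in the scrambled group, with 3 of 4 libraries above every scrambled one, and neither passed the test. Hoxa9, the homeodomain factor most often found at high level in leukaemic progenitors, lies on chr6:52223100-52231089, minus strand (GENCODE M21). Its levels were 0.583, 2.28, 2.62 and 0.989 CPM in replicates 1 to 4 of the scrambled group, and 14.1, 6.38, 1.21 and 6.16 CPM in Fubp1-shRNA replicates 1 to 4, from 21 to 349 reads a library. Fubp1-shRNA replicates 1, 2 and 4 were above every scrambled library, and replicate 3 lay among the scrambled ones, so the groups overlapped. The means were 1.62 ± 0.985 and 6.95 ± 5.31 CPM (SD, n = 4 per group). The log2 fold change was 2.09 (SE 0.73, 95% interval 0.40 to 3.77), with an adjusted p of 0.0876 in edgeR. Hoxa9 passed with DESeq2 (adjusted p = 0.00627) and without Fubp1-shRNA replicate 3 (adjusted p = 0.0171 in edgeR). Over all alternatives its adjusted p ran from 0.00627 to 0.336.

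Hoxa7, its neighbour at chr6:52214491-52221854, minus strand, was close to the limit of detection. It had 0, 13, 13 and 0 reads in the scrambled libraries and 61, 31, 2 and 82 reads in the Fubp1-shRNA libraries, which gave 0, 0.400, 0.338 and 0 CPM against 2.46, 1.02, 0.0635 and 1.78 CPM. As for Hoxa9, Fubp1-shRNA replicates 1, 2 and 4 lay above every scrambled library and replicate 3 did not. A count of 0 allows up to 0.0832 CPM in scrambled replicate 1 and 0.135 CPM in scrambled replicate 4 (3 reads each, counting error only), so the 0.0635 CPM of Fubp1-shRNA replicate 3 lies under both limits. The log2 fold change was 2.75 (SE 1.14, 95% interval 0.12 to 5.38; edgeR adjusted p = 0.134). Hoxa7 passed only without Fubp1-shRNA replicate 3 (adjusted p = 0.0359), and elsewhere reached an adjusted p of up to 0.426.

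Hoxa10, on chr6:52231197-52240854, minus strand, is the next gene of the cluster and a further homeodomain factor of early progenitors. It measured 0.194, 0.677, 0.753 and 0.225 CPM in the scrambled libraries and 1.45, 0.793, 0.222 and 0.653 CPM in the Fubp1-shRNA libraries. Only Fubp1-shRNA replicates 1 and 2 were above every scrambled library. Its log2 fold change was 0.70 (SE 0.60, 95% interval -0.67 to 2.07; edgeR adjusted p = 0.457).

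These 3 genes held most of the reads of the cluster. Summed over all HOXA genes, the level was 0.805, 3.66, 4.16 and 1.30 CPM in the scrambled libraries and 19.2, 9.02, 1.55 and 10.2 CPM in the Fubp1-shRNA libraries. Hoxa9 alone gave 60.2% to 77.6% of that sum, and Hoxa7, Hoxa9 and Hoxa10 together 84.0% to 96.6%. Other genes of the cluster were near 0. Hoxa3 had 2 reads in all scrambled libraries and 25 in all Fubp1-shRNA libraries, Hoxa4 had 9 and 40, Hoxa5 had 11 and 40, and Hoxa6 had 3 and 16. Hoxa11 and Hoxa13 had none. Of the 10 neighbours listed, only Skap2, a cytoplasmic adaptor gene beside the cluster, had enough reads to be tested. It measured 13.1 ± 2.38 and 29.9 ± 11.2 CPM, a log2 fold change of 1.18 (SE 0.27; edgeR adjusted p = 0.0268). The call on Skap2 was lost without any 1 of the 4 scrambled libraries or without Fubp1-shRNA replicate 1 or 2, with an adjusted p of up to 0.0757. In the other HOX clusters, 15 of 28 genes had no reads and 1 was tested, Hoxb4, at means of 0.369 and 0.802 CPM (edgeR adjusted p = 0.211).

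**Figure D2:**
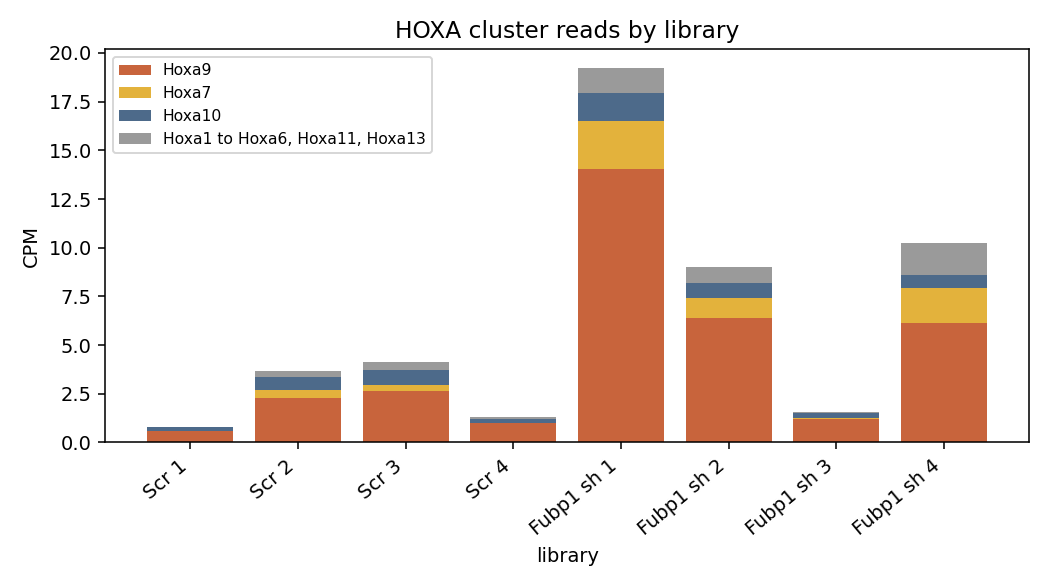
Summed level of the HOXA genes in each library in CPM, stacked as Hoxa9, Hoxa7, Hoxa10 and all other HOXA genes. Fubp1-shRNA replicates 1, 2 and 4 stand at 19.2, 9.02 and 10.2 CPM, above the highest scrambled library at 4.16 CPM, while replicate 3 is at 1.55 CPM, and Hoxa9 is the largest part of every bar.

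Meis1, on chr11:18879817-19018985, minus strand, encodes a DNA-binding partner of HOXA9 that speeds leukaemia in mouse models. It measured 2.08, 4.19, 4.21 and 1.08 CPM in the scrambled libraries and 8.62, 8.39, 2.22 and 10.7 CPM in the Fubp1-shRNA libraries. Again Fubp1-shRNA replicates 1, 2 and 4 exceeded every scrambled library, and replicate 3 did not. The means were 2.89 ± 1.57 and 7.47 ± 3.65 CPM, a log2 fold change of 1.36 (SE 0.55, 95% interval 0.10 to 2.62; edgeR adjusted p = 0.123). Meis1 passed with DESeq2 (adjusted p = 0.0304) and without Fubp1-shRNA replicate 3 (adjusted p = 0.0259 in edgeR), and reached an adjusted p of up to 0.337 elsewhere. None of the 5 other tested cofactors of this homeodomain class passed, and their median log2 fold change was 0.08. The most abundant, Pbx2 and Pknox1, which encode partners of HOX proteins, had means of 53.2 and 52.2 CPM and of 51.4 and 59.5 CPM (edgeR adjusted p = 0.869 and 0.0796).

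Erg, on chr16:95359169-95586593, minus strand, encodes an ETS factor needed for stem cell maintenance. It measured 0.555, 2.55, 2.55 and 0.315 CPM in the scrambled libraries and 4.27, 3.73, 0.476 and 17.4 CPM in the Fubp1-shRNA libraries. Fubp1-shRNA replicate 4 stood far above all other libraries, and replicate 3 was among the lowest. For Erg the log2 fold change was 2.10 (SE 1.04, 95% interval -0.28 to 4.49; edgeR adjusted p = 0.197), and without Fubp1-shRNA replicate 4 it was 0.90. No alternative brought Erg past the threshold.

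Hlf, on chr11:90336536-90390895, minus strand, encodes a bZIP factor whose expression marks stem cells. It measured 0.222, 1.20, 1.01 and 0.225 CPM in the scrambled libraries and 1.69, 0.958, 0.159 and 3.31 CPM in the Fubp1-shRNA libraries. Fubp1-shRNA replicates 1 and 4 were above every scrambled library and replicate 3 below every one. For Hlf the log2 fold change was 1.19 (SE 0.86, 95% interval -0.77 to 3.15; edgeR adjusted p = 0.372), and 0.45 without Fubp1-shRNA replicate 4.

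Mecom, on chr3:29951296-30548008, minus strand, encodes the zinc finger factor EVI1 of long-term stem cells, and had the lowest level per length. It measured 0.167, 1.05, 0.857 and 0.0450 CPM in the scrambled libraries and 0.846, 0.595, 0.0952 and 1.37 CPM in the Fubp1-shRNA libraries, and only Fubp1-shRNA replicate 4 was above every scrambled library. The log2 fold change of 0.44 (SE 0.88, 95% interval -1.57 to 2.44; edgeR adjusted p = 0.773) had no stable direction, and was -0.11 without Fubp1-shRNA replicate 4.

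**Figure D3:**
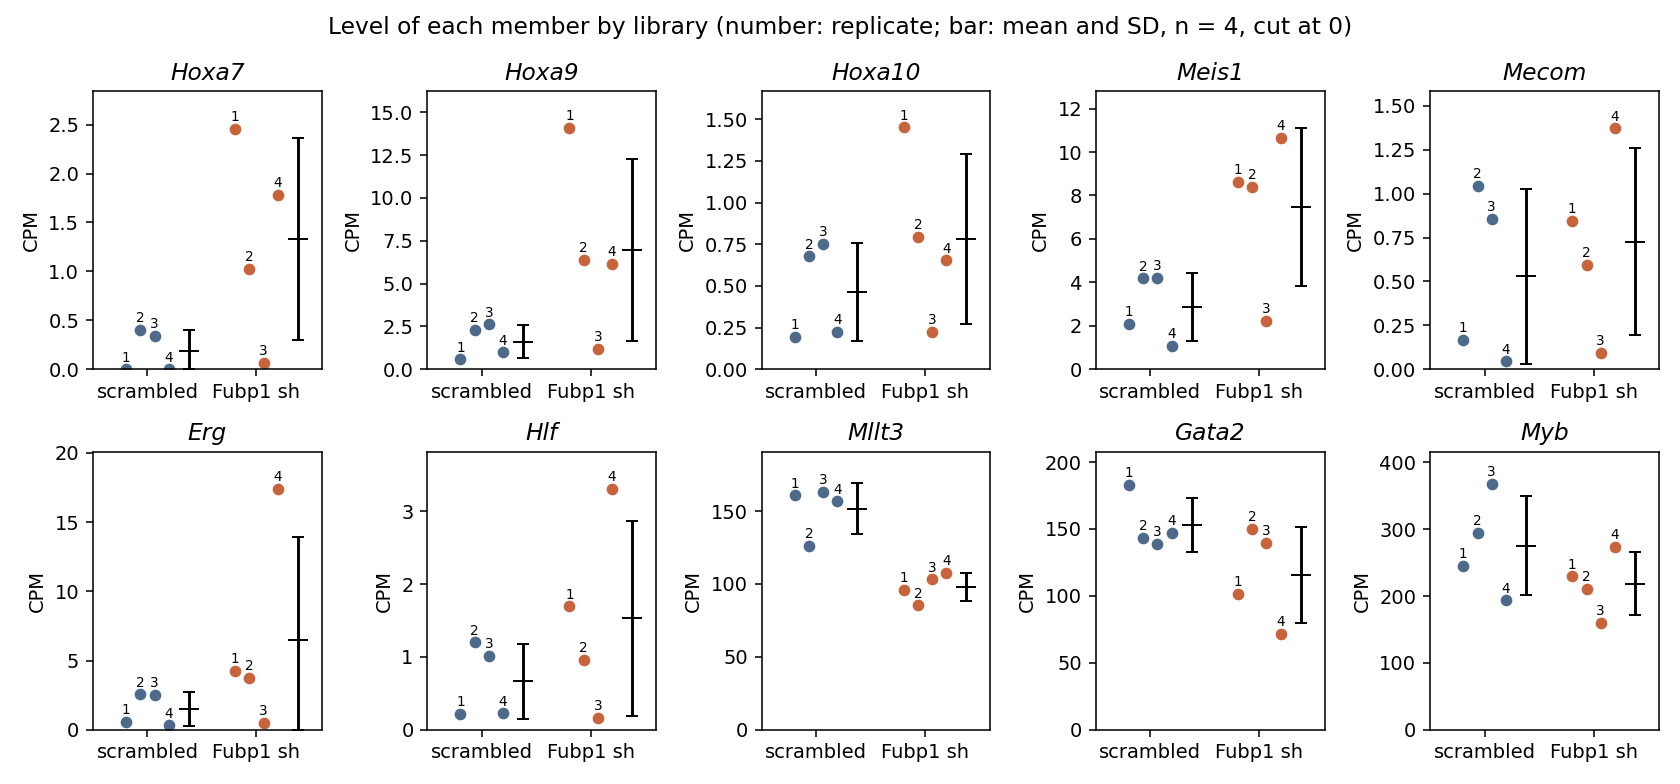
Level of each of the 10 genes in CPM, 1 panel a gene with its own linear axis from 0, for 4 scrambled and 4 Fubp1-shRNA libraries marked by replicate number, with the mean and SD (error bars cut at 0). Mllt3 is the panel in which the groups do not overlap (126 to 163 against 85.4 to 107 CPM), and in the 7 low genes Fubp1-shRNA replicate 3 lies among or below the scrambled libraries.

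The 7 low genes moved together from library to library. In each of them the 3 lowest of the 8 libraries were scrambled replicates 1 and 4 and Fubp1-shRNA replicate 3, in some order. Of all tested genes, 755 (5.61%) had these 3 libraries lowest. This pattern was chosen after the values were seen and is given as a description. The highest library was Fubp1-shRNA replicate 1 for Hoxa7, Hoxa9 and Hoxa10, and Fubp1-shRNA replicate 4 for Meis1, Mecom, Erg and Hlf. The peak in replicate 1 was not shared by all HOXA genes. The sum of the other HOXA genes was highest in Fubp1-shRNA replicate 4, at 1.63 CPM against 1.25 CPM in replicate 1. Within groups, the SD of log2 CPM was 1.8 for Hoxa7, 1.78 for Erg, 1.51 for Mecom, 1.45 for Hlf, 1.24 for Hoxa9, 0.97 for Meis1 and 0.94 for Hoxa10, against a median of 0.19 over all tested genes. That median covers genes of every level, and the SDs of genes with few reads include counting error. Genes of like level were not compared. The 3 high genes varied less, with SDs of 0.16 for Mllt3, 0.37 for Gata2 and 0.36 for Myb. The 3 lowest libraries were not the 3 shallowest, since scrambled replicate 1 and Fubp1-shRNA replicate 3 had 37095964 and 32685374 reads and scrambled replicate 4 had 22465303.

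Markers of early granulocyte precursors were lowest in the same 3 libraries. Their summed level (Mpo, Elane, Prtn3, Ctsg, Ms4a3 and Prss57) was 35.9, 165, 334 and 84.2 CPM in the scrambled libraries and 1977, 950, 86.4 and 3632 CPM in the Fubp1-shRNA libraries. All 6 of these markers had the same 3 lowest libraries as the 7 low genes, and 0 of 6 were called, with Mpo, the myeloperoxidase gene, at means of 91.9 and 983 CPM (edgeR adjusted p = 0.0669). DESeq2 called 6 of 6 higher, and so did edgeR without Fubp1-shRNA replicate 3. The part of the granulocyte precursors in the levels of the 7 low genes was not tested. Other lists shared the pattern in part: 5 of 10 tested surface genes of stem and progenitor cells, 4 of 9 known targets of HOXA9 and MEIS1, 2 of 3 monocyte and macrophage markers, 2 of 6 mast cell and basophil markers, 1 of 2 dendritic markers and 1 of 1 B lymphoid markers had these 3 libraries lowest. None of the 8 erythroid and none of the 5 tested megakaryocyte markers did. The dendritic marker with this pattern was Flt3, which is also 1 of those 5 surface genes, so it is counted in both lists. The summed monocyte and macrophage markers ran from 4.19 to 9.31 CPM in the scrambled and 8.50 to 59.3 CPM in the Fubp1-shRNA libraries. Mast cell and basophil markers ran from 2.14 to 19.2 and 6.09 to 90.8 CPM, and eosinophil markers from 0.0555 to 4.22 and 0.0653 to 32.4 CPM. Late granulocyte markers (1.26 to 6.44 and 0.666 to 23 CPM), dendritic markers (0.416 to 2.15 and 0.635 to 25.6 CPM), B lymphoid markers (0.135 to 1.01 and 0.539 to 3.75 CPM) and T and NK markers (0 to 0.0616 and 0 to 0.242 CPM) were at low levels in the scrambled group. The highest dendritic sum, 25.6 CPM in Fubp1-shRNA replicate 4, was almost all Flt3, at 24.5 CPM.

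**Figure D4:**
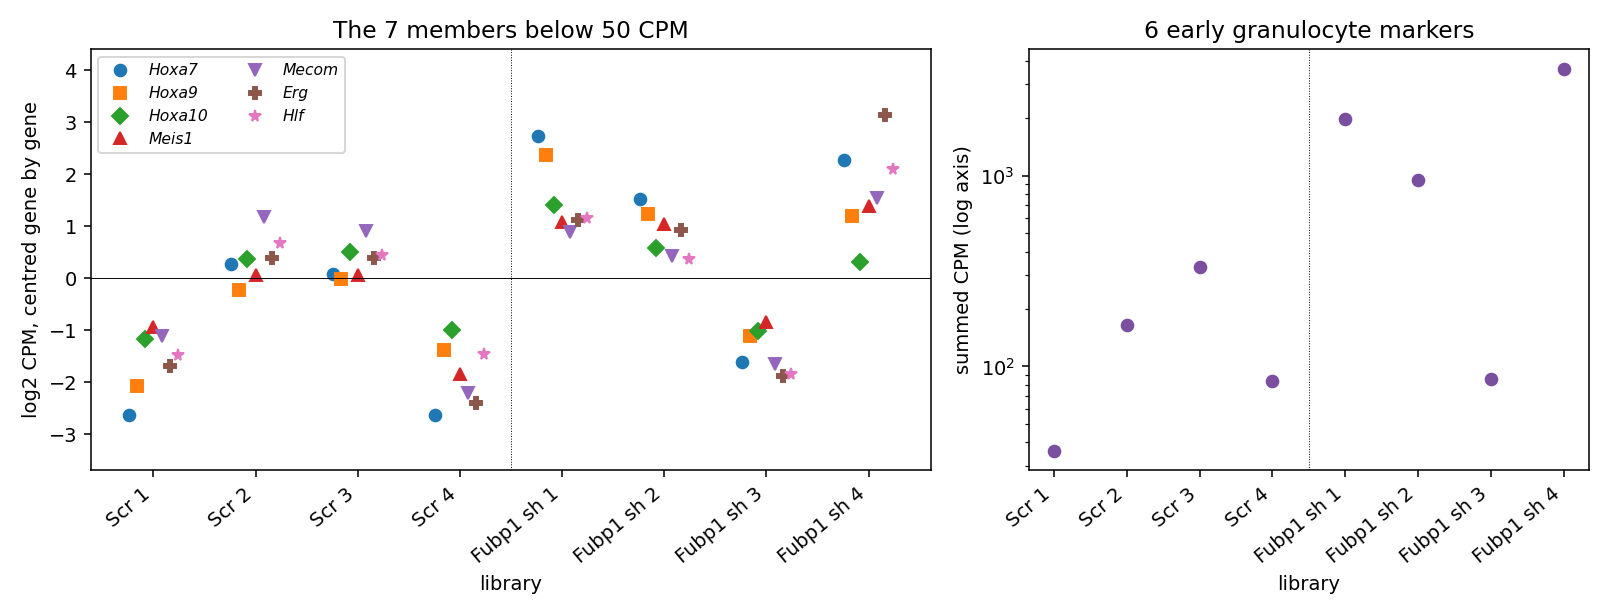
Left, log2 CPM of the 7 low genes in each library, centred on each gene's mean over the 8 libraries, and right, the summed CPM of 6 early granulocyte markers in the same libraries on a log axis. Scrambled replicates 1 and 4 and Fubp1-shRNA replicate 3 are the lowest libraries for all 7 genes, and the marker sum in those libraries is 35.9, 84.2 and 86.4 CPM, below the other 5.

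Endothelial cells share Erg and Mecom with stem cells. The summed endothelial markers were 21.2 to 27.9 CPM in the scrambled and 34.7 to 67.6 CPM in the Fubp1-shRNA libraries, with 1 of 4 tested markers higher. That marker was Pecam1, also carried by haematopoietic cells, at 4.51 ± 1.36 and 29.2 ± 14.9 CPM (log2 fold change 2.68, SE 0.46; edgeR adjusted p = 0.0123). Most of the sum in each scrambled library was Vwf, which is also 1 of the megakaryocyte markers and is counted in both lists. Vwf had means of 19.6 and 20.99 CPM and did not pass (edgeR adjusted p = 0.66). Of the other endothelial markers, Cldn5 had no counts and Cdh5 had none in 5 of 8 libraries and at most 0.0278 CPM in the others. Kdr and Tek had reads in every library, at 0.322 to 0.914 CPM and 0.457 to 4.31 CPM. Tek was highest in Fubp1-shRNA replicate 1. The part of endothelial RNA in the Erg and Mecom values was not tested. Stromal markers summed to 42.6 to 55.9 CPM in the scrambled libraries. In Fubp1-shRNA replicates 1 to 4 they summed to 729, 38.5, 41.5 and 12.6 CPM. The highest was replicate 1, which was also the highest for Hoxa7, Hoxa9 and Hoxa10. Fubp1-shRNA replicates 2, 3 and 4 lay below every scrambled library in this sum. The part of stromal RNA in the HOXA values was not tested.

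Mllt3, on chr4:87769925-88033364, minus strand, was the gene of the 10 whose level differed beyond the spread between libraries. It measured 161, 126, 163 and 157 CPM in the scrambled libraries and 96.0, 85.4, 103 and 107 CPM in the Fubp1-shRNA libraries. All 4 Fubp1-shRNA libraries were below all 4 scrambled ones, replicate 3 included, and 20.7% of all tested genes had groups that did not overlap. The means were 152 ± 17.3 and 98.0 ± 9.67 CPM, so the Fubp1-shRNA mean was 64.6% of the scrambled mean. The log2 fold change was -0.63 (SE 0.10, 95% interval -0.86 to -0.40), with an adjusted p of 0.00880 in edgeR. It was called lower under all 14 alternatives run, with fold changes between -0.72 and -0.57 and adjusted p between 7.13e-07 and 0.0270. Erythroid markers summed to 5978 to 6802 CPM in the scrambled and 4381 to 6547 CPM in the Fubp1-shRNA libraries, with 2 of 8 called higher and 4 of 8 lower, among the latter the erythroid regulator Klf1 (507 ± 26.6 and 369 ± 27.6 CPM; edgeR adjusted p = 0.00602). Megakaryocyte markers summed to 68.0 to 86.4 and 131 to 213 CPM, with 2 of 5 tested higher, such as the integrin gene Itga2b (41.0 ± 5.51 and 127 ± 30.1 CPM; edgeR adjusted p = 0.00282). The part of these cells in the Mllt3 difference was not tested.

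By likeness of pattern, the genes closest to Mllt3 among 9286 with a mean of at least 5 CPM included Csnk2a1 and Kbtbd8. The measure was the root mean square difference of log2 CPM, centred gene by gene, over the 8 libraries, at 0.113 and 0.120. Csnk2a1, the catalytic subunit gene of casein kinase 2, measured 105, 104, 106 and 109 CPM in the scrambled libraries and 73.5, 64.5, 69.2 and 76.3 CPM in the Fubp1-shRNA libraries. Its log2 fold change was -0.58 (edgeR adjusted p = 0.00259), beside -0.47 for Kbtbd8 (edgeR adjusted p = 0.0201). Since these genes were chosen for likeness to Mllt3 in the same libraries, a lower level follows from the choice and is no separate result. Without scrambled replicate 1 or Fubp1-shRNA replicate 1, Kbtbd8 lost its call, with an adjusted p of up to 0.0507.

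The chromatin regulators that act with MLLT3 or on HOXA genes gave a mixed picture. Of 14 tested, 2 were higher and 1 lower, and the median log2 fold change was 0.10, beside 0.00 over all tested genes. Mllt6, a PHD finger gene related to a DOT1L partner, rose from 3.80 ± 1.08 to 12.4 ± 3.73 CPM (log2 fold change 1.70, SE 0.28; edgeR adjusted p = 0.00966). Its groups did not overlap, at 2.88 to 4.92 and 7.52 to 16.6 CPM. Aff1, a scaffold of the elongation complex that MLLT3 joins, rose from 96.4 ± 3.93 to 127 ± 13 CPM (log2 fold change 0.39; edgeR adjusted p = 0.0161), a call lost without scrambled replicate 2 (adjusted p = 0.0578). Psip1, which tethers the MLL complex to chromatin, fell from 215 ± 7.05 to 170 ± 11 CPM (log2 fold change -0.34; edgeR adjusted p = 0.0115). The abundant Kmt2a, the MLL gene itself, and Dot1l, the histone methyltransferase, had means of 224 and 244 CPM and of 313 and 339 CPM and did not pass (edgeR adjusted p = 0.501 and 0.416).

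Gata2, on chr6:88193891-88207032, plus strand, encodes the zinc finger factor of stem cells and of the erythroid, megakaryocyte and mast cell precursors. It measured 183, 143, 139 and 147 CPM in the scrambled libraries and 102, 150.0, 139 and 71.7 CPM in the Fubp1-shRNA libraries. Fubp1-shRNA replicates 1 and 4 were the lowest for Gata2 and lay below every scrambled library, while replicates 2 and 3 lay within the scrambled range. The means were 153 ± 20.2 and 116 ± 35.9 CPM, and the log2 fold change was -0.41 (SE 0.22, 95% interval -0.91 to 0.10; edgeR adjusted p = 0.237). Alternatives gave -0.56 to -0.23 and an adjusted p of 0.135 to 0.424.

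Myb, on chr10:21124935-21160984, minus strand, encodes a factor that drives progenitor growth. It measured 245, 295, 368 and 194 CPM in the scrambled libraries and 230, 211, 160.0 and 274 CPM in the Fubp1-shRNA libraries. The groups overlapped widely, with only Fubp1-shRNA replicate 3 below every scrambled library. The means were 275 ± 74.1 and 219 ± 47.1 CPM, with a log2 fold change of -0.33 (SE 0.22, 95% interval -0.84 to 0.17; edgeR adjusted p = 0.332), with alternatives from -0.49 to -0.17. Of the 3 coactivators and partners of MYB and GATA2 that were tested, none passed, and Zfpm1, the GATA cofactor FOG1, had means of 589 and 609 CPM. Among 8 tested close relatives of the 10 genes, 1 was lower and none higher. This was Gata1, which takes over from Gata2 in erythroid cells, at 359 ± 14.1 and 283 ± 39.6 CPM (log2 fold change -0.34; edgeR adjusted p = 0.0419). The call on Gata1 was lost without any 1 scrambled library or without Fubp1-shRNA replicate 1 or 2 (adjusted p up to 0.101).

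**Figure D5:**
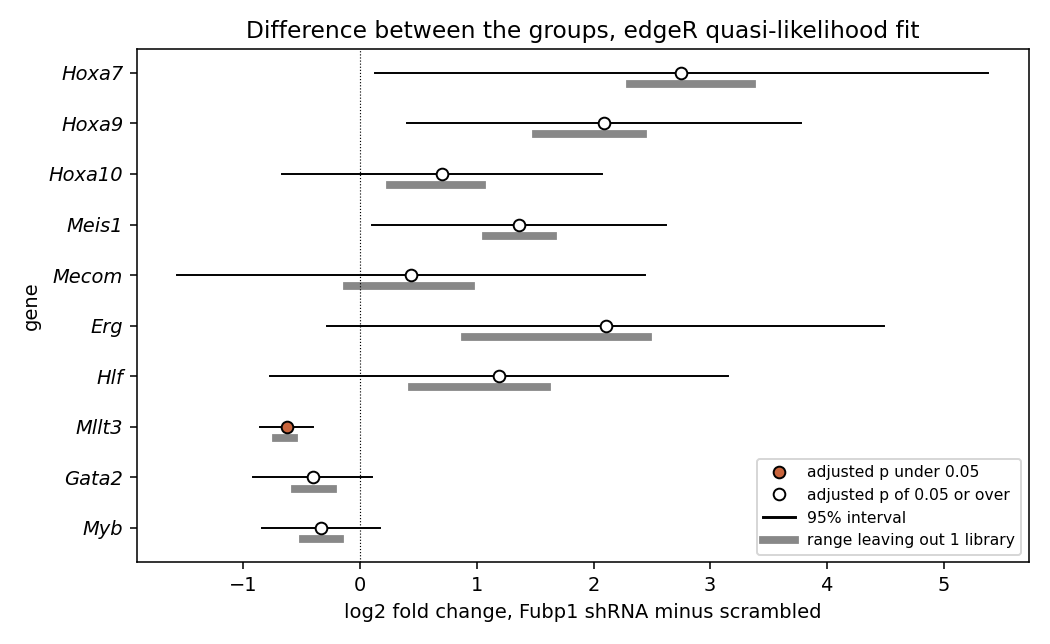
Log2 fold change of each of the 10 genes, Fubp1-shRNA against scrambled, with its 95% interval, and in grey the range when 1 library at a time is left out; the filled point passed the adjusted threshold. Mllt3 at -0.63 has the narrowest interval, the 3 high genes lie below 0 and the 7 low genes above 0, and the grey range of Mecom reaches -0.11.

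ERG and GATA2 bind progenitor enhancers together with TAL1, LYL1, LMO2, RUNX1 and FLI1, a group known as the heptad, and LDB1 binds LMO2. Of these 6 partners, all tested, 2 were higher and 2 lower, and the median log2 fold change was 0.19. Lmo2, the bridging protein gene, measured 471, 420, 430 and 444 CPM in the scrambled and 231, 220, 220 and 212 CPM in the Fubp1-shRNA libraries. It fell by 1.00 on the log2 scale (SE 0.05; edgeR adjusted p = 0.000119) and was called without any 1 library. Ldb1 fell from 513 ± 4.03 to 418 ± 35.0 CPM (log2 fold change -0.30; edgeR adjusted p = 0.0214), a call lost without scrambled replicate 1, 2 or 3 (adjusted p up to 0.0701). Fli1, the ETS gene closest to Erg, measured 1.14, 2.03, 2.86 and 1.17 CPM in the scrambled and 11.6, 9.22, 1.94 and 20.9 CPM in the Fubp1-shRNA libraries. For Fli1, as for Meis1, Mecom and Erg, Fubp1-shRNA replicate 3 lay among the scrambled libraries and replicate 4 was highest. Its log2 fold change was 2.59 (SE 0.66; edgeR adjusted p = 0.0372), a call lost with limma-voom and without any 1 library except Fubp1-shRNA replicate 3 (adjusted p up to 0.0982). Lyl1 rose from 91.5 ± 15.7 to 120 ± 2.15 CPM (log2 fold change 0.39; edgeR adjusted p = 0.0463), a call kept only without scrambled replicate 4 or Fubp1-shRNA replicate 3 (adjusted p up to 0.106 without the others). Tal1 was abundant and had means of 504 and 499 CPM (edgeR adjusted p = 0.928).

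Among 12 tested further stem cell factors, 1 was higher and 1 lower, with a median log2 fold change of 0.26. Gfi1b, a repressor of stem, erythroid and megakaryocyte cells, fell from 261 ± 6.86 to 190 ± 19.9 CPM (log2 fold change -0.46; edgeR adjusted p = 0.00991) and was called without any 1 library. Etv6, an ETS repressor, rose from 64.0 ± 2.61 to 101 ± 27.1 CPM (log2 fold change 0.66; edgeR adjusted p = 0.0371), a call lost with limma-voom, without any 1 scrambled library and without Fubp1-shRNA replicate 1 or 2 (adjusted p up to 0.0954). None of 10 tested surface genes of stem and progenitor cells passed, and their median log2 fold change was 0.76. Kit, the stem cell factor receptor gene, had means of 143 ± 70.4 and 78.7 ± 27.5 CPM (edgeR adjusted p = 0.158). Cd34 measured 1.78, 14.8, 10.9 and 2.79 CPM in the scrambled and 29.3, 23.6, 1.46 and 105 CPM in the Fubp1-shRNA libraries (edgeR adjusted p = 0.175), the same 3 libraries being lowest as in the 7 low genes. Of 9 tested genes known as targets of HOXA9 and MEIS1, 1 was higher and 1 lower, and the median log2 fold change was 1.01. That median is the value of Pim1, and 5 of the fold changes were above 0 and 4 below. Pim1, a survival kinase gene, rose from 121 ± 35.3 to 244 ± 49.1 CPM (edgeR adjusted p = 0.0274), a call lost without scrambled replicate 2 or 3 or Fubp1-shRNA replicate 2 (adjusted p up to 0.0690). Msi2, an RNA-binding protein gene of stem cells, fell from 80.2 ± 8.77 to 60.5 ± 5.70 CPM (log2 fold change -0.41; edgeR adjusted p = 0.0284), a call lost without scrambled replicate 1, 2 or 3 or Fubp1-shRNA replicate 1 or 2 (adjusted p up to 0.0836). The cell cycle kinase gene Cdk6, the most abundant of them, had means of 347 ± 61.6 and 317 ± 54.1 CPM and did not pass (edgeR adjusted p = 0.619). Nor did the kinase gene Syk, at 11.8 ± 3.48 and 36.3 ± 20.5 CPM (edgeR adjusted p = 0.0576), or the survival gene Bcl2, at 5.17 ± 1.33 and 20.1 ± 19.1 CPM (edgeR adjusted p = 0.0711). Without the filter on low counts, which left 26258 genes to adjust over, Skap2, Fli1, Etv6, Pim1 and the erythroid marker Hbb-bs also lost their calls.

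The authors' deposited table called 3 of the 10 genes at an adjusted p under 0.05, beside 21.3% of the genes for which that table gives an adjusted p. In the authors' deposited table the log2 fold change of Hoxa9 was 1.15 (SE 0.35, adjusted p = 0.00758), that of Meis1 0.90 (SE 0.33, adjusted p = 0.0331) and that of Mllt3 -0.62 (SE 0.11, adjusted p = 7.30e-07). For Hoxa7 the authors' deposited table gave 0.67 (SE 0.31, adjusted p = 0.108), and for Erg 0.59 (adjusted p = 0.189). The fold changes of the low genes in the authors' deposited table were smaller than those from edgeR on the same counts, while those of Mllt3 were -0.62 and -0.63. DESeq2 as run here gave 2.82 (SE 1.17) for Hoxa7, 2.09 for Hoxa9 and 2.10 for Erg, near those from edgeR. The unadjusted p of Hoxa9 was 0.000874 in the deposited DESeq2 results and 0.000747 with DESeq2 as run here. The deposited fold changes and SEs of low genes are thus on another scale, and the reason was not tested.

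Reads of overlapping genes bear on some of these values, since no source used here states the strand setting of the authors' counting, and reads of a gene and its antisense partner may not have been separated. Hoxaas3, antisense to Hoxa7, had 3, 2, 1 and 0 reads in the scrambled libraries and 1, 5, 4 and 3 reads in the Fubp1-shRNA libraries. In scrambled replicate 1 and Fubp1-shRNA replicate 3 these were more than the 0 and 2 reads of Hoxa7. Gm26577, antisense to Myb, had means of 0.754 and 0.784 CPM, far below those of Myb. Mir196b, inside Hoxa9, had no counts.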

How the data were processed

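RNA sequencing libraries from sorted marrow cells of 8 mice, 4 per group, were compared; per the labels each library is 1 mouse. The values deposited by the authors are raw counts, whole numbers of reads for each gene, with no normalization. Per the submitters' processing notes, CASAVA 1.8 and DESeq2 1.18.1 were used; no source used here names the aligner, counter, strand setting or build. The labels name more than 1 depletion kit without saying which library had which. In the same table the authors deposited log2 fold changes with SE, p-values and adjusted p-values, a Wald statistic (a score) and a base mean (a signal averaged over libraries); only the first 2 kinds were quoted, and the score and signal columns were not used. All 8 count columns matched a sample, and 285 genes had no symbol.

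The test was that of edgeR 4.0.16 (R 4.3.3) on the counts: TMM, filterByExpr (minimum count 10), robust quasi-likelihood F test, two-sided, without covariates, Benjamini-Hochberg over 13462 genes at 0.05. CPM uses TMM library sizes. Alternatives were DESeq2 1.42.0, its size factors in edgeR, limma-voom (3.58.1), other filters, a replicate block and leaving out each library. The fit was tested on simulated data. The 10 genes and all lists were chosen with earlier results of these data known. All 10 are named; from each list up to 5 genes are, those called with the smallest adjusted p and otherwise the most abundant, plus the 3 genes most like each called one; some genes that this rule names are not reported here. Single marker genes and the pattern of lowest libraries were chosen after their values were seen. Merged exon lengths and positions come from GENCODE M21 (GRCm38), start windows from RefSeq (GRCm38.p6), for 10 of 10 genes. Limits from a count of 0 cover counting error only, while the 95% intervals of fold changes come from the edgeR fit and include the spread between libraries. Total counts per library limit the precision of the low genes, some of which rest on fewer than 20 reads in a library.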

Additional observations from a re-analysis of the deposited data

How the results depend on the processing

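Of the fold changes of the 10 genes recomputed under other settings, 131 kept their direction and side of the threshold, 5 passed the threshold where the reported fit did not, and 1 turned in direction. The 5 are Hoxa9 and Meis1 with DESeq2, and Hoxa7, Hoxa9 and Meis1 without Fubp1-shRNA replicate 3. The 1 is Mecom, at -0.11 without Fubp1-shRNA replicate 4 (range -0.11 to 0.95 when 1 library was left out). The number of the 10 called higher, 0 as reported, was 2 with DESeq2 and 0 to 3 when 1 library was left out, with 3 only without Fubp1-shRNA replicate 3; the number called lower was 1 throughout. The all-gene count of 2062 was 3588 with DESeq2 and 526 to 3425 when 1 library was left out; the cause was not tested. With at least 1 CPM required in 4 libraries, Hoxa7, Hoxa10 and Mecom were not tested.

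A fit with the replicate block called 400 genes over all and 0 higher and 1 lower of the 10. Same-numbered libraries had correlations of -0.42, 0.02, -0.56 and -0.22 between their deviations from the group means, and the labels do not say that a number links mice, so the numbers were not taken as pairs. At a depth that gave Hoxa7 0, 0 and 2 reads in scrambled replicates 1 and 4 and Fubp1-shRNA replicate 3, differences among these 3 libraries were not detectable.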
